A study of Homo sapiens with 8 samples.

Results

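The Polycomb subunits described here are 9 genes, PHC1, PHC2, PHC3, RING1, RNF2, BMI1, EZH2, EED and SUZ12, out of 19475 rows of an mRNA expression table. They hold 17 of the 22001 regions in which N6-methyladenosine (m6A), a methylated base of mRNA, was called by m6A-sequencing. Members were found by gene symbol, in the rows of the expression table and in the gene names of the peak lists. The set was chosen by measured values: PHC3 was picked because its mRNA was lower in F. nucleatum-treated cells, and the other subunits were added around it. The differences of the members between treated and Control cells are therefore given as a description. Where members past a threshold are counted, the count only describes how they were chosen.

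HCT116 cells, an established human colorectal carcinoma line, received either Fusobacterium nucleatum at 100 bacteria per cell or PBS (Control) for 2 h. All cells were of this single line, grown in McCoy's 5A medium with fetal bovine serum, and no gene was altered. Polyadenylated RNA was fragmented, and fragments bound by an m6A antibody (IP) were sequenced beside unselected fragments (input), with 2 biological replicates of each group and fraction, 8 libraries in all. mRNA levels are from the 4 input libraries in FPKM (fragments scaled by transcript length and library total), and each of the 4 peak lists came from 1 replicate.

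Polycomb proteins keep developmental genes silent by modifying chromatin, and they work as a pair of complexes. PRC2, built on the methyltransferase EZH2 with EED and SUZ12, methylates a lysine in the tail of histone H3, and EED binds the same mark and stimulates the enzyme. PRC1 carries a RING1 or RNF2 ubiquitin ligase, which modifies histone H2A together with a PCGF protein such as BMI1, and its Polyhomeotic subunits PHC1, PHC2 and PHC3 polymerise through a SAM domain and bring Polycomb-bound chromatin together. EZH2 and BMI1 are often highly expressed in tumours, colorectal tumours among them.

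Sites of m6A lie in the consensus DRACH (D is any base but C, R a purine, H any base but G), of which GGAC is the most used form. The stretches below are shown because they mark where on 6 of the mRNAs the region called in all 4 peak lists lies. Each is the GGAC nearest to the middle of that region with 14 nt on either side, 5′ to 3′ on the mRNA strand, GGAC in capitals, read from GRCh37 (hg19), and a match to these letters is no measured methylation site.
PHC2: cagcatgctcaaGGACtcctagggctggt
BMI1: caccagagagatGGACtgacaaatgctgg
RNF2: agcattgaggaaGGACtgaagatacaggc
EZH2: atagggaagcagGGACtgaaacgggggga
EED: tcttaatccaacGGACcttacatcgtgta
SUZ12: gtagaaaattatGGACagaaaataattaa

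The PHC2 stretch lies at chr1:33790459-33790487 (minus strand), where the A of GGAC is 5 nt before the stop codon. BMI1 (chr10:22618202-22618230), RNF2 (chr1:185062371-185062399) and SUZ12 (chr17:30325720-30325748), all on the plus strand, have it in the coding sequence, and EZH2 does so at chr7:148515024-148515052 on the minus strand. The EED stretch, at chr11:85955958-85955986 (plus strand), is in the 5′UTR. The shared region of PHC1 held no GGAC, and RING1 had no region, so neither has a stretch here.

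Between 14566 and 14816 genes were above 0 FPKM in an input library. The absolute depth is unknown, since the table holds no counts. Relative to Control 1, the input of Control 2 was estimated at a depth of 1.12, that of F. nucleatum 1 at 1.24 and that of F. nucleatum 2 at 0.916, each from 5 to 10 genes at low values. All 6 epithelial markers, among them EPCAM and KRT8, were above 1 FPKM, with a summed level between 4.93e+03 and 5.29e+03 FPKM in Control and between 4.53e+03 and 4.9e+03 FPKM after treatment. Leukocyte markers summed to at most 0.222 FPKM and endothelial markers to at most 0.134 FPKM, with CD3E and CDH5 at 0, and of 5 fibroblast markers COL1A1 alone passed 1 FPKM, with COL1A2 and DCN at 0. The peak lists held 17198 and 18149 peaks in Control and 18365 and 17039 after treatment.

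PHC3, a Polyhomeotic subunit of PRC1, measured 4.28 and 3.84 FPKM in Control but 1.59 and 1.54 FPKM after treatment with F. nucleatum. Both treated libraries were far below both Control libraries, and replicates lay close together. The mean level was 4.06 ± 0.314 FPKM (SD, n = 2) in Control and 1.57 ± 0.0324 FPKM (SD, n = 2) after treatment, 2.59-fold lower. On the log2(FPKM + 1) scale, which understates the change of low genes, the difference was -0.98 with a standard error of 0.09 and a 95% interval of -1.21 to -0.75. Among the 11088 genes averaging 1 FPKM or more, all fitted together with limma, 8 had a lower difference. In RNA from whole cultures, fewer cells that express PHC3 and less PHC3 mRNA per cell cannot be told apart.

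The other Polyhomeotic genes did not show such a gap. PHC1 stood at 3.81 and 3.39 FPKM in Control against 3.47 and 3.61 FPKM after treatment, and PHC2 at 28 and 24.6 FPKM in Control against 24.7 and 25.7 FPKM after treatment. In both genes the treated libraries fell within the range of the Control libraries. The log2 difference was -0.02 for PHC1 (95% interval -0.24 to 0.21) and -0.06 for PHC2 (-0.26 to 0.14). PHC2 supplied most Polyhomeotic mRNA, at 77.6% and 77.3% of the summed FPKM of the family in Control and 83% and 83.3% after treatment. The share of PHC3 was 11.9% and 12.1% in Control and 5.35% and 5.01% after treatment. That of PHC1 was 10.6% in both Control libraries and 11.7% in both treated libraries. PHC3, chosen for its lower level, is part of this sum, so a lower PHC3 by itself raises the shares of PHC1 and PHC2. The summed level of the family was 36.1 and 31.8 FPKM in Control against 29.7 and 30.8 FPKM. PHC3 therefore stood just above PHC1 in Control, at 1.12 and 1.13 times its FPKM, and below it after treatment, at 0.458 and 0.428 times.

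The catalytic core of PRC1 differed little between groups. RING1, one of its paired ubiquitin ligases, stood at 6.68 and 5.81 FPKM in Control against 6 and 6.11 FPKM after treatment, with overlapping groups. RNF2, the other ligase, stood at 11.5 and 11.8 FPKM in Control against 11.6 and 11.3 FPKM after treatment, again overlapping. Their log2 differences were -0.04 (95% interval -0.26 to 0.19) and -0.02 (-0.19 to 0.15). BMI1, a PCGF protein that stimulates these ligases, was 20.1 and 22.3 FPKM in Control and 25.1 and 23.9 FPKM after treatment. Both treated libraries of BMI1 were above both Control libraries, with a log2 difference of 0.20 (95% interval 0.01 to 0.39), the highest of the members. This interval is not adjusted for the number of genes, and the limma adjusted p of BMI1 was 0.357. BMI1 shares exons with a readthrough gene, COMMD3-BMI1, listed at 2.1 and 0.361 FPKM in Control against 0.39 and 0.66 FPKM after treatment, so how reads were divided between both entries could move its value.

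The PRC2 core showed no gap of this size either. EZH2, its methyltransferase, was 33.3 and 33.6 FPKM in Control and 32 and 31.6 FPKM after treatment. Both treated libraries were slightly below both Control libraries, and the log2 difference was -0.07 (95% interval -0.21 to 0.07). EED, the subunit that reads the mark, was 11.2 and 10.3 FPKM in Control and 12.6 and 10.9 FPKM after treatment, a log2 difference of 0.12 (95% interval -0.12 to 0.36) with overlapping groups. SUZ12, the scaffold, was 14.1 and 15.8 FPKM in Control and 14.3 and 15.8 FPKM after treatment, also overlapping, with a log2 difference of 0.01 (95% interval -0.21 to 0.23). A SUZ12 pseudogene, SUZ12P1, appears in 3 of the 4 peak lists, and reads shared with it could have been counted for either copy. SUZ12P1 has no row in the expression table, so its level could not be compared.

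**Figure D1:**
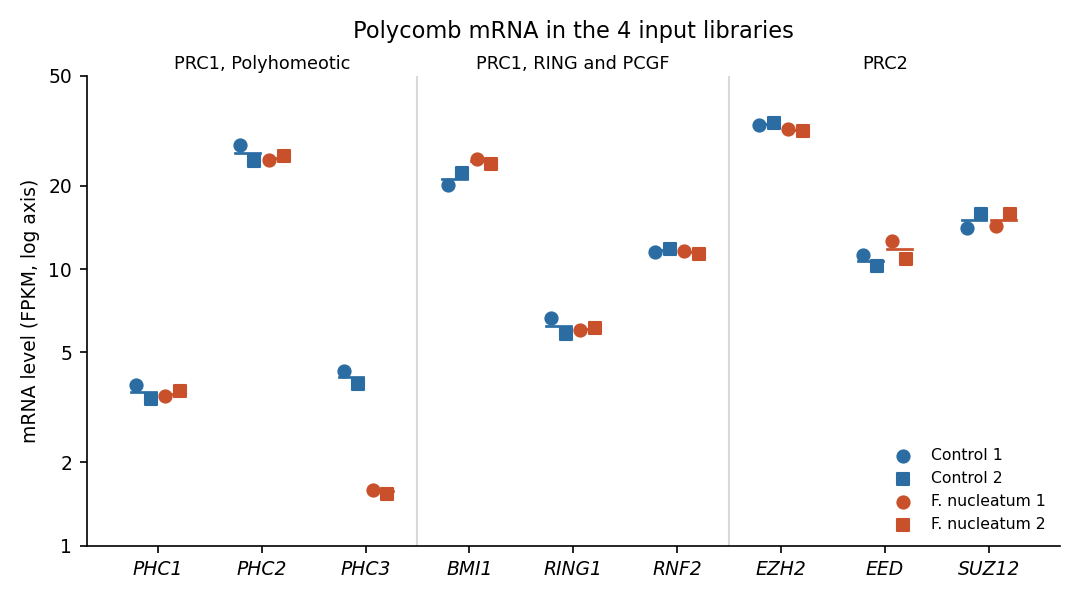
mRNA level of each Polycomb subunit in FPKM (log axis) in the 2 Control (blue) and 2 F. nucleatum (orange) input libraries, with circles for replicate 1, squares for replicate 2 and short lines at group means. PHC3 is the gene whose groups lie far apart, from 4.28 and 3.84 FPKM to 1.59 and 1.54 FPKM, while the points of the other subunits sit close together or overlap.

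Read as a set, 1 of the 9 members, PHC3, was below the adjusted threshold of 0.05 in limma with a lower level after treatment, and 0 with a higher level. PHC3 no longer passed when genes of low level were kept in the test or without F. nucleatum replicate 1 or 2. Over all genes tested, 0.803% were called, 0.135% lower and 0.667% higher, and since the choice of members used this contrast, nothing is read from their count. The groups did not overlap for 3 of the 9 members (PHC3, BMI1 and EZH2), where 47.2% of all genes tested had groups apart. The median log2 difference of the members was -0.02, and that of all genes tested was 0.01. Without PHC3, the differences ran from -0.07 for EZH2 to 0.20 for BMI1, and the widest bounds of their 95% intervals were -0.26 and 0.39.

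By level in Control, the order was EZH2 (33.5 FPKM), PHC2 (26.3), BMI1 (21.2), SUZ12 (15), RNF2 (11.7), EED (10.7), RING1 (6.24), PHC3 (4.06) and PHC1 (3.6), and the libraries of no neighbouring pair overlapped. After treatment, EZH2 again came first at a mean of 31.8 FPKM and PHC3 last. Here the libraries of PHC2 and BMI1 overlapped, as did those of EED and RNF2, so these pairs are not ordered.

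The genes most like PHC3 were those at the smallest Euclidean distance over the 4 input libraries between log2(FPKM + 1) values centred on each gene's mean. They were GLRX2 (distance 0.14), ACVR1B (0.191), NADK2 (0.242), BTBD10 (0.252) and CDKN2A (0.273). GLRX2, a mitochondrial glutaredoxin, stood at 12.4 and 10.3 FPKM in Control against 5.54 and 5.77 FPKM after treatment. ACVR1B, an activin receptor, stood at 5.42 and 5.52 FPKM in Control against 2.4 and 2.72 FPKM after treatment. All 5 were lower in both treated libraries, as the measure requires of a gene resembling PHC3, with log2 differences between -0.92 and -0.72.

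Peaks that shared at least 1 base on the same strand were joined across the lists, which gave the members 17 regions. Of these, 8 were called in all 4 lists, exactly 1 in each member but RING1, and 3 were called in a single list. Over the whole series, 51.5% of regions were in all 4 lists and 25.6% in 1, against 47.1% and 17.6% of the members' regions. No member region was lost, that is, called in both Control lists and in neither treated list, where 2.64% of all regions were lost. One was gained, the reverse, in PHC1, where 2.38% of all regions were gained. The choice of members used peak presence in this contrast too, and nothing is read from these counts. Each peak carries a score read here as the peak caller's p-value, which depends on the number of reads and not on enrichment alone, so it is no methylation level.

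PHC3 had its main region called in both groups. This region, chr3:169814725-169820359 on the minus strand, covers 541 nt of mRNA in 2 exon blocks and is centred 25 nt past the stop codon. Its p-value was 1.3e-24 and 2e-27 in the Control lists and 6.3e-25 and 1.6e-15 in the treated lists. The weakest value was that of F. nucleatum 2, and the other treated list was within the Control range. Ranked by p-value within each list, the peak came in the first 25.6% and 24.9% of the Control lists and in the first 26.8% and 34.7% of the treated lists. It held 2 GGAC, both in the coding sequence, and 16 DRACH matches, at a GC content of 38.8%.

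In both groups, PHC3 had a peak of lower p-value than most genes of similar abundance. Of the 2577 genes within 2-fold of 1.57 FPKM in the treated libraries, 69.6% had a peak in F. nucleatum 1 and 63% in F. nucleatum 2, and 7.26% and 9.35% had one of lower p-value than PHC3. In Control, of the 3753 genes within 2-fold of 4.06 FPKM, 75.5% and 78.6% had a peak, and 24.2% and 26.3% had one of lower p-value. The genes compared differ between groups, since they are set by the level of PHC3, for which PHC3 was chosen. These shares describe where PHC3 stood among genes in the same list, and whether methylation per transcript differed was not tested.

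A second region of PHC3, chr3:169846838-169847258, covers 421 nt of coding sequence 1774 nt before the stop codon. It was called in both Control lists, at p-values of 8.9e-05 and 4.5e-07, and in F. nucleatum 1, at 6.8e-09, but not in F. nucleatum 2. The strongest and the missing call were thus both from treated cells. It held no GGAC and 3 DRACH matches. The canonical PHC3 transcript is 12652 nt long, of which 9646 nt are 3′UTR, and no peak named for PHC3 lay further into the 3′UTR than the region at the stop codon.

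PHC2 had its main region at the stop codon too. It lies at chr1:33790238-33794476 on the minus strand, covers 389 nt with a GC content of 62%, and is centred 36 nt past the stop codon. The p-values were 4e-37 and 5e-47 in Control and 7.9e-40 and 3.2e-35 after treatment, and the groups overlapped. Weak coding peaks further 5′ were called in 1 list each, at chr1:33820482-33820631 in Control 2 (p-value 0.0022) and at chr1:33820720-33820810 in F. nucleatum 1 (0.00049).

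PHC1 differed from its paralogs in that its shared region lay in the 3′UTR. This region, chr12:9092953-9093252 on the plus strand, is 300 nt long, is centred 1050 nt past the stop codon, and has 4 DRACH matches at a GC content of 35.7%. Its p-values were 1.6e-07 and 4e-13 in Control and 3.6e-08 and 1.1e-06 after treatment, with overlapping groups. Of all regions called in any list with a length within 10% of it, 78.4% held a GGAC. A region over the stop codon of PHC1, chr12:9090483-9092355, was called in Control 2 at 7.2e-10 and in both treated lists at 9.1e-09 and 3e-06, but not in Control 1.

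The gained region of PHC1 lies at chr12:9083489-9085244, in 2 exon blocks of the coding sequence 1882 nt before the stop codon. It was called at 0.0034 in F. nucleatum 1 and at 0.002 in F. nucleatum 2. Both values were among the weakest of their lists, at 95.8% and 92.3% of the ranking, and the region held no GGAC.

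BMI1 carried the strongest peak of the members in every list. Its main region, chr10:22616675-22618804 on the plus strand, covers 1045 nt in 6 exon blocks, is centred 187 nt before the stop codon and holds 5 GGAC and 24 DRACH matches. The p-values were 1e-125 and 1e-124 in Control and 1e-154 and 1e-118 after treatment, so that the treated lists held both the strongest and the weakest value. They ranked in the first 4.01% and 4.37% of the Control lists and in the first 3.1% and 3.64% of the treated lists. The same region was also listed under COMMD3-BMI1 in all 4 lists. A region in the 5′UTR, chr10:22610199-22610407, with a GC content of 76.1%, was called at 6e-06 and 0.00049 in Control and at 0.00071 in F. nucleatum 1, but not in F. nucleatum 2.

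The ligases RNF2 and RING1 differed in m6A calls. RNF2 had a single region, in 3 exon blocks of the coding sequence at chr1:185060838-185067342 on the plus strand, centred 600 nt before the stop codon. Its p-values were 7.8e-10 and 1e-15 in Control and 6.3e-15 and 7.9e-18 after treatment, with overlapping groups. RING1 (chr6:33176277-33180499, plus strand) had no peak in any list, although its transcript of 1741 nt holds 11 GGAC, or 6.32 per kb, the highest density of the 9 canonical transcripts. Of the 4240 genes within 2-fold of its mean level, 12.8% had no peak and 73% had a region in all 4 lists.

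Among the PRC2 subunits, EZH2 had its shared region in the coding sequence at chr7:148514414-148515167 on the minus strand, 1078 nt before the stop codon. The p-values were 7.9e-14 and 5e-12 in Control and 7.9e-14 and 2e-19 after treatment, with the strongest value in F. nucleatum 2 and the same value in F. nucleatum 1 as in Control 1. A second region joins part of an exon at chr7:148580289-148580601, annotated as the first exon of an alternative isoform, to part of the exon at chr7:148544274-148544397, which holds the start codon. It was called at 5.2e-05 and 3.9e-08 in Control and at 7.1e-06 in F. nucleatum 1, but not in F. nucleatum 2. A coding peak at chr7:148524358-148525921 was listed in F. nucleatum 2 alone, at 6e-05.

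EED was the member with its shared region over the 5′ end of the mRNA. The region, chr11:85955754-85961420 on the plus strand, covers 715 nt with a GC content of 62% and ran from the 5′UTR into the coding sequence. Its lowest p-value was 1.3e-16 and 4e-21 in Control and 2e-12 and 4.1e-06 after treatment, so both treated lists were weaker than both Control lists. How often the groups lie apart in p-value over all regions was not counted, so nothing is read from this gap. The outline varied between lists without separating the groups. Control 2 had 1 peak across the region, Control 1 and F. nucleatum 1 had 2 separate peaks, and F. nucleatum 2 had the 5′ peak alone. Placed in the 5′UTR by its midpoint, the EED region belongs to a class that held 2.14% of the 9470 regions in all 4 lists that could be placed on a canonical transcript.

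SUZ12 had its shared region over the last exons, at chr17:30321708-30326115 on the plus strand, covering 751 nt in 4 blocks, centred 280 nt before the stop codon and running past it. The p-values were 2.5e-60 and 6.3e-58 in Control and 1.6e-65 and 1.6e-45 after treatment, with the treated lists on either side of the Control lists. A peak in the first exon, chr17:30264359-30264449, with a GC content of 75.8%, was called in Control 1 at 0.00028 and in F. nucleatum 1 at 0.01.

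**Figure D2:**
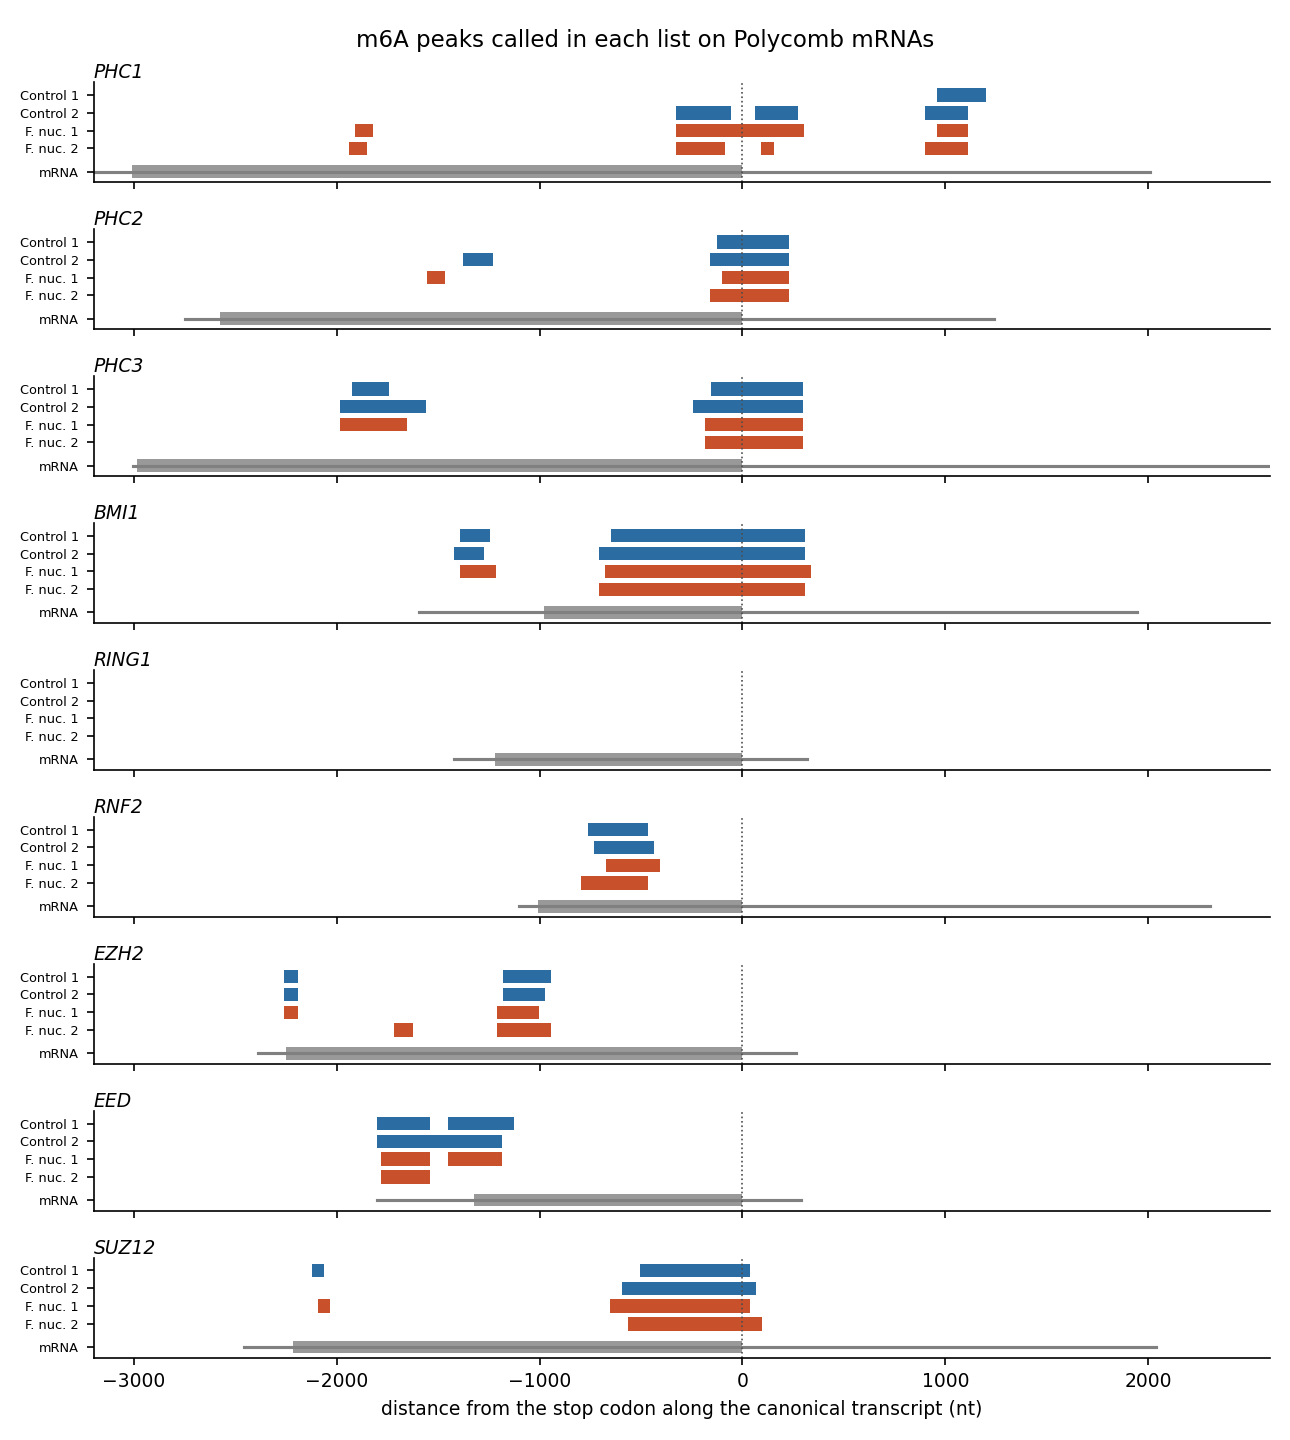
Peaks called in each list along the canonical mRNA of each Polycomb subunit, in nt from the stop codon (dotted line), with Control in blue, F. nucleatum in orange, the coding sequence as a thick grey bar and UTRs as a thin line. The 3′UTR of PHC3 runs past the axis, the alternative-exon block of EZH2 is not drawn, and RING1 has no peak. Peaks lie at the stop codon in PHC2 and PHC3, upstream of it in RNF2 and EZH2, across it from the coding side in BMI1 and SUZ12, and at the 5′ end in EED.

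The regions missing from a single list fell unevenly. PHC3, BMI1 and EZH2 each had a region absent in F. nucleatum 2 alone, PHC1 had one absent in Control 1 alone, and there were 0 for the other lists. Over all regions, 3.67% were absent in F. nucleatum 2 alone and 3.74% in Control 1 alone, against 1.74% in Control 2 and 1.64% in F. nucleatum 1. F. nucleatum 2 and Control 1 also had the lowest relative input depths, 0.916 and 1, and the part of depth in these missing calls was not tested.

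**Figure D3:**
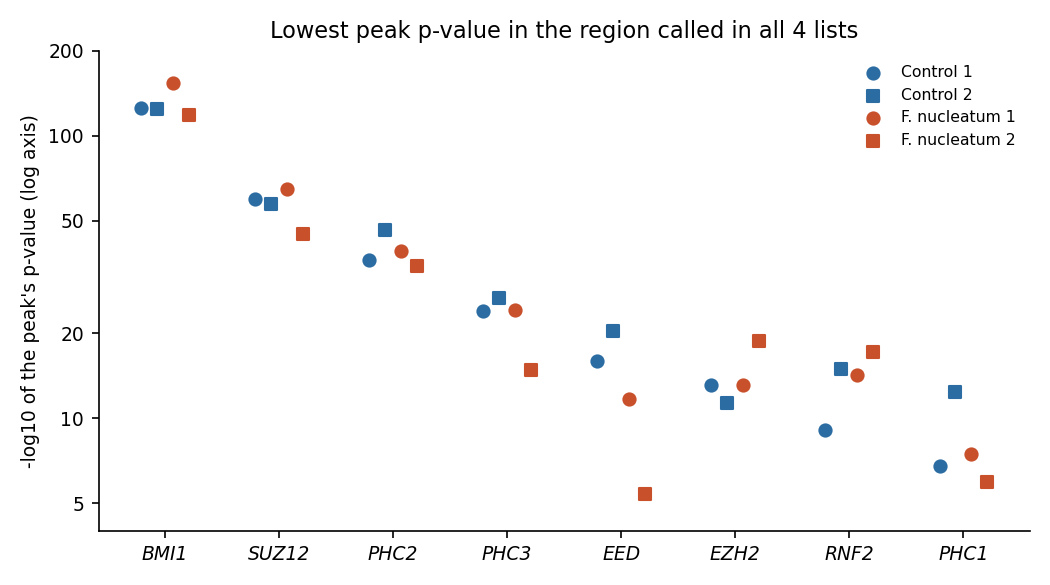
Strength of the region called in all 4 lists, as -log10 of its lowest p-value in each list (log axis), for the 8 subunits that have one, with Control in blue, F. nucleatum in orange, circles for replicate 1 and squares for replicate 2. BMI1 is highest at 1e-118 to 1e-154, the groups are apart in EED with both treated points lower, and F. nucleatum 2 is the lowest of the 4 points in every gene but EZH2 and RNF2.

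By position and sequence, which are given as a description since the choice also looked at where peaks lay, 8 of the 9 members (88.9%) had a region in all 4 lists, where 67.2% of the genes tested did. Exactly 1 such region was found in 88.9% of members and 45.9% of the genes tested. By midpoint, 4 of the 8 shared regions were in the coding sequence, 2 at the stop codon (within 100 nt), 1 in the 5′UTR and 1 in the 3′UTR. Of all placed regions in 4 lists, 44.1% were in the coding sequence, 19.2% at the stop codon and 34.6% in the 3′UTR. A GGAC was present in 7 of the 8 (87.5%), as in 90% of all regions in 4 lists, at a median length of 465 nt against 595 nt. These shares rest on 8 regions and were not tested.

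Beyond the members, 100 further Polycomb genes in 5 lists were looked up, and 75 had a mean of at least 1 FPKM and were tested. By limma with Benjamini-Hochberg adjustment over all genes tested, 0 were called higher and 1 lower, where 0.667% of all genes tested were called higher and 0.135% lower. These lists too were chosen with earlier results of these data known, so the counts are given as a description. At an unadjusted p-value below 0.05 there were 7 of the 75, beside 1496 of all 11088 genes. Their median log2 difference was -0.03. The gene called was CDKN2A, a classical Polycomb target that encodes the inhibitors of the CDK4 kinase and of MDM2. It stood at 27.6 and 26.7 FPKM in Control against 16.9 and 15.2 FPKM after treatment. The log2 difference was -0.72 (SE 0.08, limma adjusted p = 0.0238). The call was lost when genes of low level were kept in the test (adjusted p = 0.0663) and without F. nucleatum replicate 1 or 2 (0.161 and 0.202), and over the other alternatives the adjusted p ran from 0.0169 to 0.0477.

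In the list of other PRC1 genes, 0 of 24 tested passed in either direction. The differences ran from -0.27 for the co-repressor BCOR, at 5.98 and 5.97 FPKM in Control and 4.93 and 4.62 FPKM after treatment (limma adjusted p = 0.278), to 0.44 for E2F6, a DNA-binding subunit of a variant complex. E2F6 stood at 7.7 and 14 FPKM in Control and 14.5 and 14.4 FPKM after treatment, so 1 Control library set its difference (adjusted p = 0.481). The log2 difference of E2F6 was 0.05 without Control replicate 1, which held the low value, and 0.83 without Control replicate 2. Of 11 PRC2 partners, 0 passed, from -0.13 for the methyltransferase EZH1 to 0.24 for PHF19, a Polycomb-like subunit at 11 and 6.56 FPKM in Control and 10 and 10.4 FPKM after treatment. Without Control replicate 2, which held the low value, PHF19 was at -0.10.

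The PR-DUB complex removes the ubiquitin that PRC1 adds. None of its 9 tested genes passed, with ASXL1 lowest at -0.13 (limma adjusted p = 0.534) and KDM1B highest at 0.21 (0.456). With 1 library left out at a time, ASXL1 ran from -0.22 to -0.04 and KDM1B from 0.08 to 0.34, both smallest without Control replicate 1. At an unadjusted p-value below 0.05 there were 2 of the other PRC1 genes, 0 PRC2 partners, 0 PR-DUB genes, 1 opposing enzyme and 4 target genes, of 24, 11, 9, 10 and 21 tested, beside the 1496 of 11088 over all genes. Among 10 methylases and demethylases that oppose Polycomb, KDM6B, which removes the PRC2 mark, had the highest difference. It stood at 3.46 and 3.25 FPKM in Control against 5.64 and 6.19 FPKM after treatment, a log2 difference of 0.67 (SE 0.09) with an adjusted p of 0.0504. Over the alternative settings its adjusted p ran from 0.0366, with a correction for GC content, to 0.323. KMT2C was lowest in this list at -0.14. Of 41 Polycomb target genes, mostly of the HOX clusters, 21 were tested, and apart from CDKN2A none passed. HOXD8 was the highest at 0.47, at 0.764 and 1.46 FPKM in Control and 1.52 and 2.28 FPKM after treatment (limma adjusted p = 0.396). It was 0.23 without Control replicate 1, 0.28 without F. nucleatum replicate 2 and 0.76 with a pseudocount of 0.1.

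**Figure D4:**
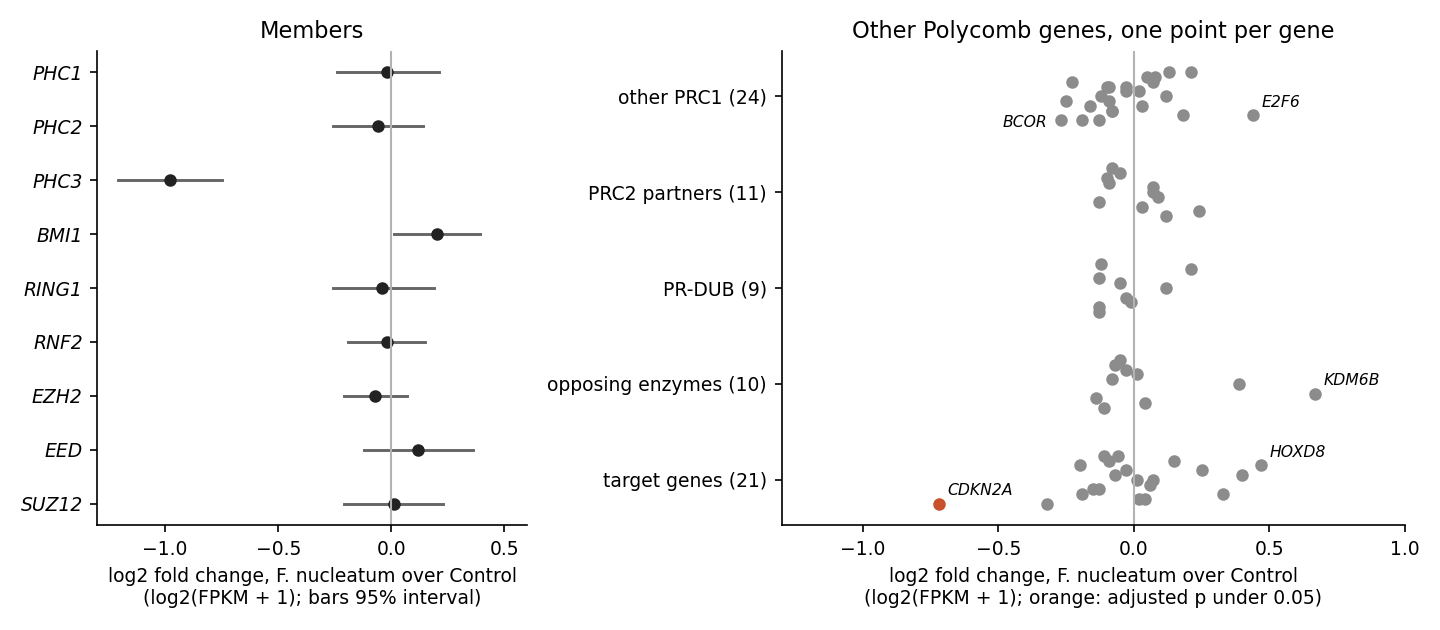
Log2 difference of F. nucleatum against Control on the log2(FPKM + 1) scale for the 9 members (left, bars are 95% intervals) and for 75 other Polycomb genes by list (right, 1 point a gene, orange where the limma adjusted p is below 0.05). PHC3 lies at -0.98, the other members between -0.07 and 0.20, and CDKN2A is the orange point at -0.72.

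The further Polycomb genes held 235 regions, of which 7 were lost and 5 gained, beside 2.64% and 2.38% of all regions. RBBP4, a histone-binding PRC2 subunit, gained one at chr1:33116809-33116993, called at 2.6e-08 and 0.00017. CDKN2A gained a peak of 90 nt at chr9:21968018-21968107, called at 0.00098 and 0.00076. The other gained regions were in MBD5 and KMT2A, with p-values between 7.6e-05 and 0.003 in the treated lists. The lost regions were in BCOR, L3MBTL2, E2F6, FBRS, ASXL1, MBD6 and NSD2, with p-values between 1e-05 and 0.006 in the Control lists.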

How the data were processed

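The authors trimmed reads (the methods name cutadapt, the submitters' processing notes Trim Galore 0.3.3) and aligned them to hg19 with HISAT2 2.1.0. The deposited mRNA levels are FPKM from StringTie on the 4 input libraries. The deposited peak lists, 1 for each replicate, hold exon blocks and a score that was read as the authors' unadjusted p-value. The methods name MACS2, while the layout is that of exomePeak, and which one made the lists was not settled. No read counts were given, so the depth is unknown and the count model of the study was not usable.

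The members and lists were chosen with earlier results of these data known. Levels were fitted with limma 3.58.1 (lmFit, eBayes with trend) in R 4.3.3 on log2(FPKM + 1) for the 11088 genes averaging 1 FPKM or more, 2 libraries against 2, with no covariate, and adjusted by Benjamini-Hochberg. Intervals are 95%, from the same fit. The fit was tested on simulated data. Peaks of the same strand with at least 1 bp in common were joined into regions, placed by midpoint on canonical transcripts of GENCODE release 44 on GRCh37 where 90% of their bases lay on the transcript, with a stop codon class of 100 nt on either side, in Python 3.11.15. Coordinates are 1-based.

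The text names all members, in each further list the genes past the adjusted threshold and those with the highest and lowest difference, and the 5 genes nearest to PHC3. RBBP4, MBD5, KMT2A and the genes with lost regions were named after their values were seen. Alternatives were another pseudocount, other filters, quantile normalization, no trend, a replicate block, a GC correction, each library left out, stricter peaks, reciprocal overlap and placement by region start. A sequence stretch of 1 member is not reported here.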

Additional observations from a re-analysis of the deposited data

How the results depend on the processing

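With no filter on low values, 40 genes were called in place of 89, with 0 members and 0 other Polycomb genes in place of 1 each. More genes were then adjusted for. With a minimum mean of 5 FPKM, 0 members were called, since PHC3 falls below it. With a GC correction (10688 genes) 2 other Polycomb genes were called, KDM6B joining CDKN2A, and the cause was not tested. Leaving out 1 library at a time gave 16 to 284 genes called, 0 to 1 members and 0 to 2 other Polycomb genes. The 0 values came without F. nucleatum replicate 1 or 2, where PHC3 was at -0.99 and -0.97. MEN1, named after its values were seen, was the second call without Control replicate 1, and E2F6 without Control replicate 2. PHF19 was 0.57 without Control replicate 1 and turned to -0.10 without Control replicate 2. Counted over single named genes and settings, 195 log2 differences kept direction and call or, for members, stayed within the replicate spread, 3 moved (PHC3, EZH2, RNF2), 2 passed the threshold (KDM6B, E2F6), 3 no longer passed (CDKN2A) and 1 reversed (PHF19). For members, a lost call or a change of sign was not scored. The lost calls of PHC3 and the sign changes of PHC1, PHC2, RING1 and SUZ12 are therefore among the 195. Without Control replicate 1, PHC1 went from -0.02 to 0.05 and PHC2 from -0.06 to 0.03. In the same setting RING1 went from -0.04 to 0.05 and SUZ12 from 0.01 to -0.07. Over all alternatives PHC3 ran from -1.32 (pseudocount 0.1) to -0.91.

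Replicate differences were not shared between the groups (correlation over genes 0.024). Whether libraries of the same replicate number were prepared together is not given. With a replicate block, 90 genes, 1 member and 1 other Polycomb gene were called.

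At a peak p-value of at most 1e-05, 0 member regions were gained. Without 1 list at a time, 0 to 3 were lost and 1 to 2 gained, the 3 lost without F. nucleatum replicate 1. Placed by region start, 0 shared regions were in the stop codon class in place of 2. With 50% reciprocal overlap the EED region broke up, leaving 7 in all lists. Unknown depth, 2 libraries per group and p-values without enrichment limit how finely m6A can be compared.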
